A study of Mus musculus with 12 samples.

Results

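The comparison was of 5-hydroxymethylcytosine (5hmC) in the heart and the liver of adult mice. It rested on 4 of the 12 libraries of the series, chosen by their titles: W8 heart replicates 1 and 2 and W8 liver replicates 1 and 2. Both groups were whole tissue of the C57BL6/j strain, taken at 8 weeks and snap frozen, with no genetic change or treatment named in the labels, and all 4 libraries were read from 1 end at 50 bp. The other libraries, from embryonic stem cells (ESC) and from heart and liver at embryonic day 14 (E14) and at day 1 after birth (P1), entered the fit because the spread between replicates was estimated over all groups. The labels do not say whether replicates came from separate animals, nor the sex of the animals. The p-values therefore reflect only how far these samples scatter, and that scatter may be technical.

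In mammalian DNA 5hmC is made from 5-methylcytosine by the Tet enzymes, mostly at CpG sites. In differentiated tissues it is known to accumulate over the bodies of transcribed genes and at enhancers, and to be low at the start sites of active CpG-rich promoters. In hMe-Seal, the method used here, a phage glucosyltransferase puts an azide-bearing glucose on each 5hmC, biotin is coupled to it, and the tagged fragments of about 300 bp are captured and sequenced. The unit was FPKM, reads per length of the region and per depth of the library, for 2 regions of each gene. The promoter window was 4000 bp long and the gene body began where it ended, about 2 kb inside the gene. Such a level is relative to the rest of the library and is not a share of cytosines. In whole tissue, fewer cells of a type and less 5hmC per cell cannot be told apart.

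The libraries were unequal in depth. Reads over gene bodies came to 3395160 in heart replicate 1 and 142778 in heart replicate 2, and to 4593480 and 4207430 in liver. The median gene body held 102 and 5.04 reads in heart and 164 and 149 in liver, so the counting error of the median body was 44.5% of its value in heart replicate 2 and 9.91% or less in the others. No read fell in 9.94% of the bodies of heart replicate 2. In the 1971 tested bodies that are at least 100 kb long, which collect the most reads, the liver libraries correlated at r = 0.997 across genes. The heart libraries correlated at r = 0.871. Heart replicate 1 was closest to P1 heart (r = 0.982 and 0.980), whereas heart replicate 2 was closest to E14 liver (0.923) and P1 liver (0.913 and 0.915). Heart replicate 2 correlated with adult liver at 0.789 and 0.777, and heart replicate 1 at 0.731 and 0.715. These correlations describe genes, which are not independent replicates. The reason why the heart libraries differ was not tested, and differences and list counts are given with heart replicate 1 alone as well.

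**Figure D1:**
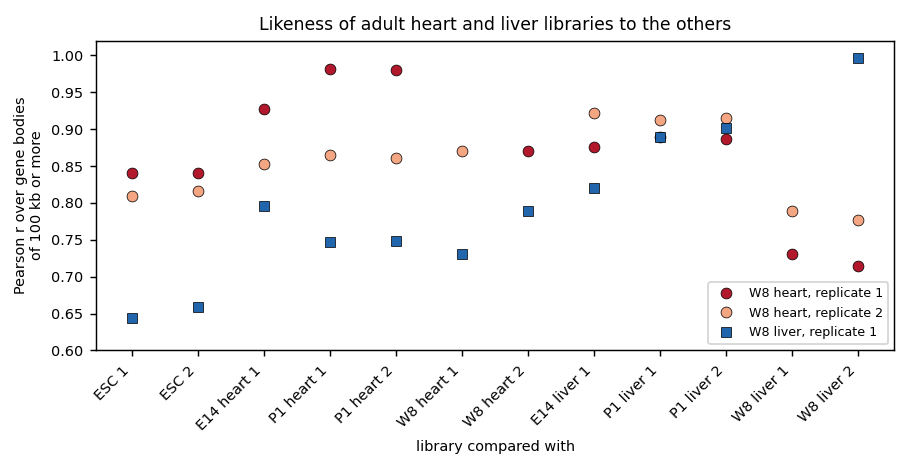
Pearson r of log2 gene-body levels between W8 heart replicate 1, W8 heart replicate 2 and W8 liver replicate 1 (points) and each other library (horizontal axis), over 1971 bodies of 100 kb or more. Heart replicate 1 reaches 0.982 with P1 heart, and heart replicate 2 reaches 0.923 with E14 liver and 0.871 with heart replicate 1.

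Of 13484 gene bodies tested, 30.8% differed by limma at an adjusted p of 0.05, with 1280 higher in heart (9.49%) and 2871 lower (21.3%). With heart replicate 1 alone 39.8% differed, 1735 of them higher (12.9%) and 3628 lower (26.9%). A set of 1077 bodies (7.99%) was called higher and 2435 (18.1%) lower in both fits. With heart replicate 1 alone the heart group holds 1 library, which is assumed to vary like the other groups. The p-values of that fit hold no spread between adult heart libraries, and the 2 fits share libraries. The median gene lay at -0.32 on the log2 scale, toward liver, and -0.34 with heart replicate 1 alone. Centring each library on its median turned the split to 2212 higher (16.4%) and 1357 lower (10.1%), of 26.5% called. With heart replicate 1 alone and centred, 34.3% were called, 2707 higher (20.1%) and 1924 lower (14.3%). Of the bodies called in both unscaled fits, all 1077 higher ones and 1338 of the 2435 lower ones (9.92% of all bodies) were also called after centring. Centring moved every difference by the same amount toward heart, and the median gene from -0.32 to -0.007. It therefore could hardly remove a call toward heart and tested only the calls toward liver. In 2925 bodies (21.7%) both heart libraries lay above both liver libraries, and in 6255 (46.4%) below. With both heart libraries, limma passed 0 bodies when either liver library was left out (smallest adjusted p = 0.0553 and 0.0607), although 3994 and 3858 had an unadjusted p under 0.05. With heart replicate 2 left out as well, 2037 bodies passed without liver replicate 1 and 1920 without liver replicate 2. A fit to the W8 libraries alone passed 0 as well (smallest adjusted p = 0.0891; 4280 unadjusted).

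**Figure D2:**
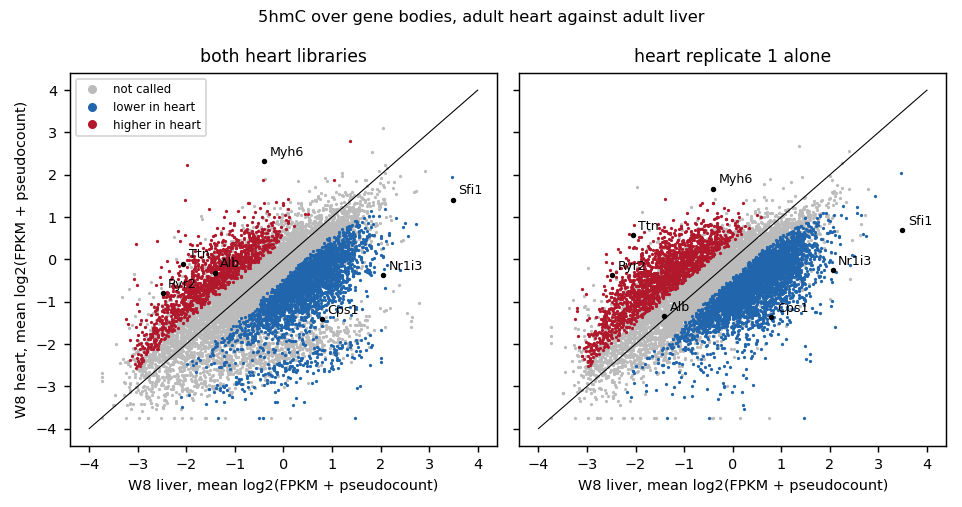
Mean log2(FPKM + pseudocount) of each gene body in W8 liver (horizontal) and W8 heart (vertical), with both heart libraries (left) and heart replicate 1 alone (right); each dot is a gene, red higher and blue lower in heart by limma. Myh6 and Ttn lie above the diagonal and Nr1i3 and Cps1 below it in both panels, Alb moves to the diagonal on the right, and the grey band of low heart values on the left holds genes near or at 0 in heart replicate 2.

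The DNA just before the start of 4 genes is shown for orientation, because 5hmC can be captured only where modified cytosines lie and these genes differ both in tissue and in CpG content. Ryr2 and Dusp27 had higher 5hmC over their bodies in heart; Cyp1a2 had lower 5hmC there, and Alb is the defining product of hepatocytes. The sequences are the 250 bases before the RefSeq start (GRCm38.p6), 5′ to 3′ on the strand of the gene, with each CG, which reads the same on both strands, in capitals. They lie at chr13:12106946-12107195, minus strand for Ryr2, chr1:166127899-166128148, minus strand for Dusp27, chr9:57683656-57683905, minus strand for Cyp1a2 and chr5:90460620-90460869, plus strand for Alb.
Ryr2: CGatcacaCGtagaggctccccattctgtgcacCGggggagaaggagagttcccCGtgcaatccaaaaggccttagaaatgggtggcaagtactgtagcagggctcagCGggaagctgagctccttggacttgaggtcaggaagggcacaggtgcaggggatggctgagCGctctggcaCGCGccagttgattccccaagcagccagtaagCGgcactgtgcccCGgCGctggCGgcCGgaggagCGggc
Dusp27: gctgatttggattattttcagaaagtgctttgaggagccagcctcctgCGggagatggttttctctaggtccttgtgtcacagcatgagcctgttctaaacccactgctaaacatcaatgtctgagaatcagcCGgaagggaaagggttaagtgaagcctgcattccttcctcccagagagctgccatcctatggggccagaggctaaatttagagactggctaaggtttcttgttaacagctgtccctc
Cyp1a2: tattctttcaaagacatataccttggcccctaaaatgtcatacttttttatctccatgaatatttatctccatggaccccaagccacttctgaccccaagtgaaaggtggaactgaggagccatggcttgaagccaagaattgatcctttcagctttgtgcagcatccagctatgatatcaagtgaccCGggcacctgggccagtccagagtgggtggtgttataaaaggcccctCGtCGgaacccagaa
Alb: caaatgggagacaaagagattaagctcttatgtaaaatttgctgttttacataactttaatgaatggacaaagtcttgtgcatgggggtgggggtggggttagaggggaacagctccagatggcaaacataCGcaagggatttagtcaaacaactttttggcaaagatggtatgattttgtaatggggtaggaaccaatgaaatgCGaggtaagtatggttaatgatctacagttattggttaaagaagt
The stretch of Ryr2 holds 14 CG, that of Dusp27 2, that of Cyp1a2 3 and that of Alb 2. Over the 7645 tested genes with a single RefSeq promoter, 98.2% of such stretches held at least 1 CG and the median was 15.

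Differences below are log2 values, heart minus liver, each given as the estimate from both heart libraries with its standard error (limma) and, after a slash, the estimate from heart replicate 1 alone. Levels are in FPKM, the heart libraries first, in the order of their numbers. Values in brackets after a list median are those with heart replicate 1 alone. A named gene passed in both fits and after centring unless stated.

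Genes of the cardiac sarcomere carried more 5hmC in heart. Of 19 tested, 9 were higher and 0 lower, and with heart replicate 1 alone 14 and 0. Their median difference was 1.06 (1.14 with heart replicate 1 alone), against -0.32 over all genes, and their median body was 24817 bp long, against 25076 bp. Myh6, the alpha myosin heavy chain of the adult mouse ventricle, stood at 3.11 and 7.83 FPKM in heart and 0.770 and 0.609 in liver. Its body spans 55560758 to 55583444 in mm9. The heart libraries did not overlap the liver libraries, and the shallow one was the higher. The difference was 2.72 ± 0.39 / 2.07 (limma, adjusted p = 0.00621; 0.00253 with heart replicate 1 alone). Tnnt2, cardiac troponin T, showed the same order, at 2.44 and 5.26 in heart and 0.806 and 0.565 in liver (2.29 ± 0.41 / 1.74). Ttn, which encodes the giant spring protein titin, went the other way between the heart libraries. It stood at 1.41 and 0.510 in heart and 0.173 and 0.157 in liver over a body from 76542041 to 76818604, a difference of 1.96 ± 0.38 / 2.63 (adjusted p = 0.0128). Heart replicate 2 gave 46 reads to this body and 58 to that of Myh6. Actn2, which encodes a muscle alpha-actinin that anchors thin filaments, had close heart values, 1.29 and 0.978 against 0.243 and 0.246 in liver (1.91 ± 0.17 / 2.09, adjusted p = 0.00349). Myh7, the slow myosin heavy chain, and Myl2, the ventricular regulatory light chain, were higher by 2.10 ± 0.39 / 2.03 and 1.71 ± 0.38 / 1.39. Tnni3, the inhibitory troponin, Myoz2 of the Z disc and Des, which encodes desmin, also passed (1.39 ± 0.41 / 1.70, 1.09 ± 0.20 / 1.14 and 1.67 ± 0.41 / 2.00). The sum of the list was 28.8 and 31.6 FPKM in heart and 14.4 and 13.0 in liver. Its median body stood at 1.47 and 0.981 in heart and 0.726 and 0.565 in liver. The P1 liver libraries had 0.839 and 0.960, the ESC libraries 1.08 and 1.06, and P1 hearts 1.78 and 1.77. On that measure heart replicate 2 lay nearer to P1 liver than to heart replicate 1.

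Genes of calcium handling and cardiac ion channels followed, with 11 of 22 higher and 1 lower (15 and 1 with heart replicate 1 alone) and a median of 0.88 (1.24). Their bodies were long, with a median of 126892 bp. The sum of the list was 19.3 and 15.1 FPKM in heart and 10.1 and 10.2 in liver, against 14.9 and 14.2 in P1 liver, so heart replicate 2 lay close to the latter. Ryr2, which encodes the channel that releases stored calcium at each beat, stood at 0.694 and 0.355 FPKM in heart and 0.104 and 0.104 in liver over a body from 11645370 to 12197212. The 2 liver values were equal to 3 digits and both heart values lay above them (1.68 ± 0.27 / 2.11, adjusted p = 0.00794). Kcnh2, a potassium channel of repolarisation, stood at 1.25 and 1.02 in heart and 0.311 and 0.291 in liver, and Kcnj5, a channel of the atrial acetylcholine current, at 0.938 and 0.893 against 0.247 and 0.157. Their heart libraries lay close together, and the differences were 1.68 ± 0.17 / 1.82 and 1.86 ± 0.26 / 1.89 (adjusted p = 0.00419 and 0.00589). For Slc8a1, the sodium-calcium exchanger, heart replicate 2 lay between heart replicate 1 and liver. It stood at 1.10 and 0.398 in heart and 0.192 and 0.211 in liver (1.43 ± 0.38 / 2.09). The member lower in heart was Atp2a2, which encodes the calcium pump that refills the cardiac store. It stood at 1.22 and 0.718 in heart and 1.95 and 1.91 in liver, with no overlap (-0.98 ± 0.24 / -0.63, adjusted p = 0.0231; 0.0234 with heart replicate 1 alone). After centring the difference was -0.66 and did not pass (adjusted p = 0.0885).

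Cardiac transcription factors were divided. Of 19 tested, 4 were higher and 1 lower, with a median of -0.24, and 8 and 1 with heart replicate 1 alone, with a median of 0.36. Myocd, a cofactor of serum response factor in heart and smooth muscle, stood at 1.12 and 0.507 in heart and 0.129 and 0.112 in liver (2.09 ± 0.31 / 2.61, adjusted p = 0.00666). Tbx5, a T-box factor of the developing heart, stood at 0.926 and 0.569 against 0.179 and 0.214 (1.57 ± 0.25 / 1.89). Mef2c, a muscle factor, stood at 0.700 and 0.588 against 0.168 and 0.170 (1.56 ± 0.16 / 1.67). In all of these both heart libraries lay above liver. Hand1 passed too (2.00 ± 0.39 / 1.46), with 1 read in heart replicate 2. Gata4, a zinc finger factor of both heart and liver, was the member lower in heart, at 1.41 and 1.31 against 1.92 and 2.04. Its difference of -0.52 ± 0.14 / -0.47 (adjusted p = 0.0294) was near that of the median gene, and after centring it was -0.20 (adjusted p = 0.309). The body of Nkx2-5, the homeobox factor of cardiac progenitors, had 0 reads in heart replicate 2 and did not pass (-2.11 ± 1.09 / -0.93, adjusted p = 0.175; 0.547 with heart replicate 1 alone).

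Genes of cell junctions went both ways, 3 of 17 higher and 4 lower (6 and 3 with heart replicate 1 alone). Over all bodies 9.49% were higher and 21.3% lower, so the junction genes called lower were near the overall share. Gja1, the main connexin of the working myocardium, stood at 1.73 and 1.38 in heart and 0.497 and 0.522 in liver (1.47 ± 0.32 / 1.63, limma, adjusted p = 0.0171). Fhl2, a LIM-domain protein of the sarcomere, was at 1.43 and 0.791 against 0.369 and 0.415 (1.29 ± 0.25 / 1.69). The desmosomal cadherin genes Dsg2 and Dsc2 were lower in heart, at 0.638 and 0.346 against 1.32 and 1.40 (-1.39 ± 0.25 / -1.01) and 0.399 and 0.228 against 0.898 and 1.06 (-1.47 ± 0.35 / -1.15). With heart replicate 1 alone Dsc2 no longer passed (adjusted p = 0.0511). Among 9 tested hormone and receptor genes, Ednra, an endothelin receptor, was higher in heart (1.47 ± 0.31 / 1.97) and the receptors Adra1b (-1.35 ± 0.16 / -1.19), Adra1a (-1.25 ± 0.37 / -0.71) and Agtr1a (-0.98 ± 0.23 / -0.82), for adrenaline and angiotensin, were lower. With heart replicate 1 alone 2 were higher and 2 lower, and Adra1a did not pass (adjusted p = 0.0827). After centring neither Adra1a nor Agtr1a passed (limma, adjusted p = 0.0919 and 0.102). The hormone and receptor counts are small and stand against the same 9.49% higher and 21.3% lower over all bodies.

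**Figure D3:**
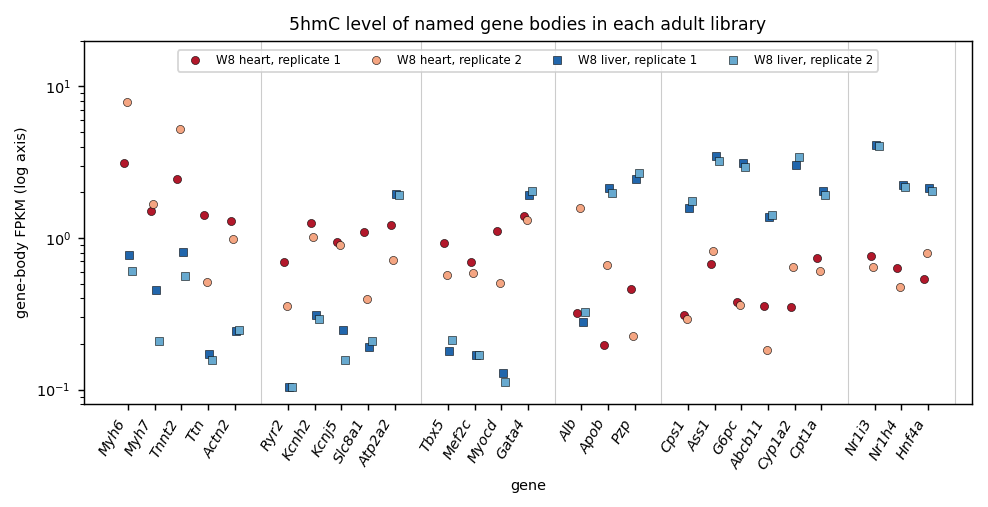
Gene-body FPKM (log axis) of 26 named genes in each of the 4 adult libraries, circles for heart and squares for liver, grouped from left to right as sarcomere, channels and pumps, cardiac regulators, plasma proteins, liver metabolism and liver regulators. Heart circles lie above liver squares for Myh6 through Slc8a1 and Tbx5 through Myocd, and below them for Atp2a2, Gata4 and all liver genes shown except Alb, where heart replicate 2 is at 1.57 and the other 3 libraries lie between 0.279 and 0.324.

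Genes of fatty acid oxidation, the main fuel pathway of the adult heart and also active in hepatocytes, were lower in heart. Of 25 tested, 21 were lower and 0 higher, and with heart replicate 1 alone 18 and 1. After centring 11 were lower and 1 higher. The list median was -1.09 (-1.08 with heart replicate 1 alone), and its sum was 21.7 and 19.7 FPKM in heart and 46.5 and 45.7 in liver. Cpt1a, the liver form of the carnitine palmitoyltransferase that admits fatty acids to mitochondria, stood at 0.744 and 0.605 in heart and 2.03 and 1.92 in liver (-1.46 ± 0.19 / -1.33, adjusted p = 0.00542). Mlycd, which degrades malonyl-CoA, stood at 0.881 and 0.650 against 2.49 and 2.20 (-1.54 ± 0.23 / -1.34). The bodies of Acaa1a, Echs1 and Etfdh, enzymes of the oxidation spiral and its electron transfer, had no read in heart replicate 2, so their fitted differences depend on the pseudocount. With heart replicate 1 alone the differences were -1.91 ± 0.27, -2.18 ± 0.47 and -1.48 ± 0.29 (adjusted p = 0.00494, 0.0152 and 0.0120). Fabp3, the fatty acid binding protein of heart, lay on the other side, at 1.70 and 1.26 in heart and 0.878 and 0.809 in liver, and passed with heart replicate 1 alone but not with both (0.75 ± 0.25 / 0.95, adjusted p = 0.0572; 0.0346 with heart replicate 1 alone). Of 13 genes of oxidative phosphorylation 4 were lower and 0 higher (5 and 0 with heart replicate 1 alone; 1 and 0 after centring), with a median of -0.46 (-0.63). These counts are not far from the shares over all bodies, of which 21.3% were lower, 26.9% with heart replicate 1 alone and 10.1% after centring. Etfa, a subunit of the electron transfer flavoprotein, differed by -1.92 ± 0.48 / -1.10 and Ndufa9 of complex I by -1.05 ± 0.25 / -0.71 (adjusted p = 0.0799 after centring). These bodies held 1 and 2 reads in heart replicate 2.

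Families with one form used in muscle and another in liver were compared within each library, as the log2 ratio of the FPKM of the muscle form to that of the liver form. Both forms were tested in 11 of 19 families. The ratio was above both liver libraries in both heart libraries in 6 families. Hk2, the muscle form of hexokinase, stood at 1.51 and 1.29 in heart and 0.522 and 0.547 in liver, with no overlap (1.27 ± 0.17 / 1.38, adjusted p = 0.00583). For connexins, Gja1 over Gjb1, the hepatocyte form, the log2 ratios were 2.11 and 0.12 in heart and -0.82 and -0.68 in liver. For glucose transporters, Slc2a4 over Slc2a2, they were 1.35 and 0.14 in heart and -0.89 and -1.54 in liver, where only the liver form Slc2a2 passed (-1.66 ± 0.27 / -2.01; Slc2a4 0.30 ± 0.48 / 0.55). Over all 11 families 7 liver forms were lower in heart and 0 higher (10 lower with heart replicate 1 alone). Of the muscle forms, 2 were higher (3 with heart replicate 1 alone), Hk2 and Gja1, and 2 were lower, the glycogen synthase Gys1 (-0.89 ± 0.25 / -0.65; adjusted p = 0.0922 with heart replicate 1 alone and 0.154 after centring) and the acetyl-CoA carboxylase Acacb (-1.19 ± 0.25 / -0.77). Their liver partners Gys2 (-1.22 ± 0.18 / -1.13) and Acaca (-0.74 ± 0.16 / -0.81; adjusted p = 0.0694 after centring) were lower too. Among all bodies 9.49% were called higher and 21.3% lower, so the muscle forms called lower were near the overall share. For glycogen phosphorylase the heart libraries lay on either side of liver. The log2 ratio of Pygm to Pygl was 0.93 and -1.43 in heart and -0.97 and -0.93 in liver, and Pygl, the liver form, stood at 0.705 and 1.50 in heart and 2.02 and 1.93 in liver (-0.89 ± 0.30 / -1.40, adjusted p = 0.0632; 0.00301 with heart replicate 1 alone).

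Genes of hepatocyte products and metabolism were lower in heart in every list examined. The urea cycle and amino acid list had 24 of 28 lower and 0 higher, with a median of -1.65 (25 lower and -1.64 with heart replicate 1 alone). Cps1, which starts the urea cycle, stood at 0.312 and 0.290 FPKM in heart and 1.58 and 1.75 in liver over its body from 67171600 to 67277833. Replicates of each tissue lay close together (-2.21 ± 0.17 / -2.17, adjusted p = 0.00349). Ass1, a later step, stood at 0.674 and 0.822 against 3.48 and 3.22 (-2.06 ± 0.16 / -2.19). Asl, which follows it, stood at 0.544 and 0.267 against 2.43 and 2.56 (-2.48 ± 0.40 / -2.05). Cth, which makes cysteine, stood at 0.124 and 0.321 against 1.53 and 1.50 (-2.50 ± 0.30 / -3.00). In all 4 the heart libraries lay far below the liver libraries.

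Xenobiotic metabolism had 15 of 18 lower and a median of -1.97 (16 and -2.11 with heart replicate 1 alone), and in all 18 both heart libraries lay below both liver libraries. Over all bodies 46.4% lay below in this way. Cyp1a2, a cytochrome P450 of hepatocytes, stood at 0.350 and 0.640 in heart and 3.01 and 3.40 in liver (-2.57 ± 0.35 / -2.95). Cyp2b10, a target of the receptor Nr1i3, stood at 0.132 and 0.227 against 1.28 and 1.20 (-2.40 ± 0.34 / -2.67). Cyp3a11, the main hepatic member of its family, held 2 and 2 reads in the heart libraries, at 0.0119 and 0.257 FPKM against 1.06 and 1.13 in liver (-2.79 ± 0.61 / -3.76). Its estimate moved the most of the 3 between the fits.

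Complement and acute phase genes had 15 of 17 lower (16 with heart replicate 1 alone) and a median of -1.72 (-1.77). Hc, complement component 5, stood at 0.405 and 0.242 against 1.54 and 1.58 (-2.07 ± 0.23 / -1.77). C4b stood at 0.398 and 0.691 against 2.93 and 2.46 (-2.20 ± 0.25 / -2.55). The heart libraries again lay below liver in both.

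Glucose, lipid and bile acid metabolism had 18 of 26 lower (23 with heart replicate 1 alone) and a median of -1.53 (-1.67). G6pc, which encodes the enzyme that releases free glucose, stood at 0.377 and 0.362 in heart and 3.10 and 2.93 in liver (-2.80 ± 0.32 / -2.77). Slco1b2, an uptake transporter, stood at 0.123 and 0.166 against 0.932 and 1.09 (-2.31 ± 0.23 / -2.46). Abcb11, the bile salt export pump, stood at 0.358 and 0.182 against 1.38 and 1.41 (-2.14 ± 0.26 / -1.76). Scd1, a fatty acid desaturase, stood at 0.746 and 0.821 against 4.33 and 3.97 (-2.30 ± 0.25 / -2.36). None of these genes overlapped between the tissues. They were named mostly for their large differences, and 46.4% of all bodies also had both heart libraries below both liver libraries. Many of the named bodies held few reads in heart replicate 2, such as 1 in G6pc and Asl, 2 in Cyp2b10 and 3 in C4b and Cth. After centring 18 urea cycle and amino acid, 14 xenobiotic, 14 complement and 12 glucose, lipid and bile acid genes were lower, and 1 gene of the first list was higher.

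Plasma proteins and coagulation factors had 18 of 28 lower and 0 higher (20 and 0 with heart replicate 1 alone; 15 and 0 after centring), with a median of -1.50 (-1.66). Here the heart libraries were further apart, as the sum of the list was 14.8 FPKM in heart replicate 1, 33.3 in heart replicate 2 and 48.3 and 45.3 in liver. Over its members heart replicate 2 exceeded heart replicate 1 by a median of 0.81 on the log2 scale, against 0.00 over all genes. Apob, the protein of lipoprotein particles, stood at 0.196 and 0.660 in heart and 2.13 and 1.99 in liver (-2.26 ± 0.41 / -2.97). Ambp, which encodes alpha-1-microglobulin and bikunin, stood at 0.369 and 0.689 against 2.31 and 2.23 (-2.01 ± 0.30 / -2.40). Alb, which encodes serum albumin, had low 5hmC over its body in liver, at 0.279 and 0.324 FPKM, and 0.320 and 1.57 in heart (body from 90891915 to 90905629). Heart replicate 1 lay within the liver values and heart replicate 2, with 7 reads, above them (1.10 ± 0.63 / 0.07, adjusted p = 0.214; 0.895 with heart replicate 1 alone). Its promoter window, in contrast, had 0.104 and 0 FPKM in heart and 0.815 and 0.651 in liver (-2.83 ± 0.96 / -2.18, adjusted p = 0.256).

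Hepatocyte transcription factors had 10 of 17 lower and 0 higher (14 and 0 with heart replicate 1 alone), with a median of -1.50 (-1.65). Nr1i3, the constitutive androstane receptor, stood at 0.760 and 0.641 in heart and 4.13 and 4.05 in liver over its short body from 173146117 to 173150832, which held 1 read in heart replicate 2 (-2.43 ± 0.18 / -2.32, adjusted p = 0.00349). Nr1h4, the bile acid receptor, rested on more reads and stood at 0.632 and 0.475 against 2.24 and 2.16 (-1.87 ± 0.17 / -1.69, adjusted p = 0.00349). Hnf4a, a nuclear receptor of hepatocyte identity, stood at 0.539 and 0.801 against 2.12 and 2.04 (-1.55 ± 0.34 / -1.81). For Onecut1 and Onecut2, homeobox factors of liver and bile ducts, heart replicate 2 lay between heart replicate 1 and liver. Onecut1 stood at 0.273 and 0.947 in heart and 2.04 and 2.17 in liver (-1.87 ± 0.49 / -2.65). Onecut2 stood at 0.233 and 0.627 against 1.63 and 1.75 (-1.93 ± 0.36 / -2.52). After centring Onecut1 did not pass (adjusted p = 0.0649). After centring 7 of the 17 were lower.

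**Figure D4:**
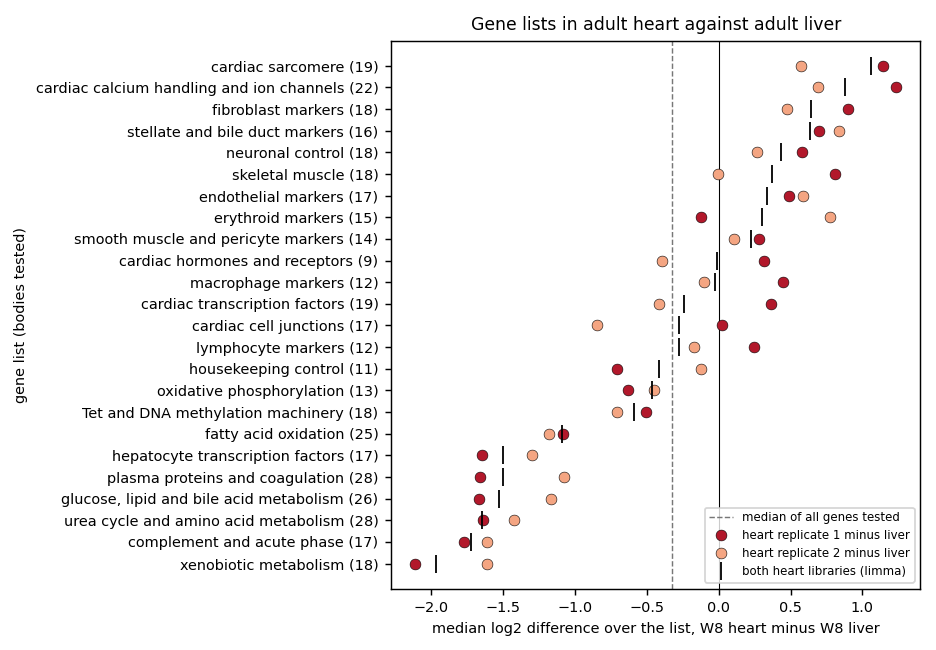
Median log2 difference between W8 heart and W8 liver over each gene list (number of bodies tested in brackets), for heart replicate 1 alone, heart replicate 2 alone and both; the dashed line is the median of all genes, -0.32. Sarcomere and ion channel lists lie to the right of 0, and fatty acid oxidation and the 6 hepatocyte lists far to the left, with either heart library, while plasma proteins lie at -1.66 with heart replicate 1 and -1.07 with heart replicate 2.

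Markers of other cell types also differed, mostly toward heart. Their counts stand against 9.49% higher and 21.3% lower over all bodies, and their medians against -0.32. Fibroblast markers had 9 of 18 higher and 1 lower, the same counts with heart replicate 1 alone, and a median of 0.64 (0.90). Col1a1, a chain of collagen I, stood at 1.16 and 1.25 in heart and 0.311 and 0.301 in liver (1.75 ± 0.19 / 1.70). Col3a1 of collagen III stood at 0.340 and 0.420 against 0.0810 and 0.0990 (1.46 ± 0.22 / 1.34). Col5a1 of collagen V stood at 0.910 and 1.24 against 0.297 and 0.299 (1.61 ± 0.18 / 1.40). The lower member was Fn1, fibronectin, which hepatocytes also secrete into plasma, at 0.996 and 0.793 against 3.11 and 2.92 (-1.68 ± 0.17 / -1.53). Endothelial markers had 7 of 17 higher and 0 lower, again equal with heart replicate 1 alone, and a median of 0.34 (0.49). Kdr, a receptor for vascular endothelial growth factor, stood at 1.05 and 0.631 against 0.286 and 0.346 (1.19 ± 0.26 / 1.53). Cdh5, the cadherin of endothelial junctions, stood at 0.816 and 0.902 against 0.374 and 0.341 (1.11 ± 0.19 / 1.04). Erg, an endothelial transcription factor, stood at 0.793 and 0.653 against 0.338 and 0.348 (0.93 ± 0.17 / 1.06). Smooth muscle and pericyte markers had 4 of 14 higher and 1 lower (3 and 1 with heart replicate 1 alone) and a median of 0.22 (0.28), with Pdgfrb, the receptor for platelet-derived growth factor on pericytes, at 0.984 and 0.886 in heart and 0.570 and 0.540 in liver (0.68 ± 0.13 / 0.75). Skeletal muscle genes had 4 of 18 higher and 0 lower (6 and 0) and a median of 0.37 (0.81), among them Tnnt3, the fast troponin T, at 0.855 and 1.01 against 0.200 and 0.211 (1.85 ± 0.38 / 1.73).

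The summed fibroblast list was 12.2 and 9.15 FPKM in heart and 8.28 and 7.50 in liver, with Lum, Tcf21 and Thy1 at 0 in heart replicate 2. The endothelial sum was 12.7 and 13.1 in heart and 10.4 and 10.1 in liver, with Sox17 at 0 there. Blood cell lists changed little in number. Of 12 macrophage markers 2 were higher and 0 lower with both heart libraries, with a median of -0.03 (0.45). Of the 13 macrophage markers with values, 6 were at 0 in heart replicate 2, Clec4f and Aif1 among them. The macrophage sum was 5.83 and 3.27 in heart and 3.87 and 4.64 in liver. Of 12 lymphocyte markers 2 were higher and 0 lower (4 and 0 with heart replicate 1 alone), with a median of -0.28 (0.25) and 3 at 0 in heart replicate 2, and the sum was 5.81 and 4.53 in heart and 4.98 and 4.90 in liver. Ikzf1, a lymphoid zinc finger factor, stood at 0.285 and 0.758 in heart and 0.121 and 0.144 in liver (1.40 ± 0.37 / 0.80). Erythroid markers had 2 of 15 higher and 2 lower (2 and 1 with heart replicate 1 alone), and their median turned from 0.30 with both heart libraries to -0.13 with heart replicate 1 alone. Their sum was 8.43 in heart replicate 1, 13.4 in heart replicate 2 and 9.11 and 9.99 in liver, and it was 12.9 in E14 liver and 18.0 and 18.2 in P1 liver, with Klf1, Epor and Nfe2 at 0 in heart replicate 2. Bcl11a, a repressor of fetal globin genes, stood at 1.12 and 1.41 against 0.307 and 0.329 (1.76 ± 0.18 / 1.61). Ank1, the ankyrin of the red cell membrane, stood at 0.943 and 1.18 against 0.300 and 0.321 (1.55 ± 0.18 / 1.40). Bcl11a and Ank1 were the 2 erythroid members called higher, and 2 others were called lower. Both heart libraries lay above liver in 5 of the 15 and below it in 6. Over all bodies 9.49% were called higher and 21.3% lower, and 21.7% and 46.4% lay above and below. Stellate and bile duct markers had 6 of 16 higher and 2 lower (7 and 1 with heart replicate 1 alone) and a median of 0.64 (0.70), among them Ngfr, a receptor of stellate cells, at 0.968 and 1.26 against 0.299 and 0.248 (1.77 ± 0.20 / 1.59). The stellate and bile duct list stands for cells of liver, yet its calls went mostly toward heart. It includes Des, which is also in the sarcomere and smooth muscle lists. Its counts stand against the same 9.49% higher and 21.3% lower over all bodies. The part of these other cell types in the tissue differences was not tested.

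The control lists stand against 9.49% higher and 21.3% lower over all bodies and a median of -0.32. The share of neuronal genes called higher was near that of all bodies, but the neuronal median lay toward heart. With both heart libraries the housekeeping median lay near that of all genes. Of 18 neuronal genes 2 were higher in heart and 0 lower (6 and 1 with heart replicate 1 alone), with a median of 0.43 (0.58). In 10 of the 18 both heart libraries lay above liver, against 21.7% of all bodies, and the median was above those of the endothelial, skeletal muscle and smooth muscle lists with both heart libraries (below skeletal muscle with heart replicate 1 alone). Camk2a, a neuronal kinase subunit, stood at 1.26 and 0.706 in heart and 0.367 and 0.391 in liver (1.17 ± 0.26 / 1.56). Of 11 housekeeping genes 0 were higher and 1 lower (0 and 5 with heart replicate 1 alone), with a median of -0.42 (-0.70). The lower gene was Psmb2 of the proteasome (-0.97 ± 0.22 / -0.70; adjusted p = 0.0515 after centring). Among 18 genes of the Tet and DNA methylation machinery 0 were higher and 5 lower (0 and 6 with heart replicate 1 alone; 0 and 2 after centring), with a median of -0.59 (-0.51). The count is not far from the 21.3% of all bodies called lower (26.9% with heart replicate 1 alone; 10.1% after centring). Tet2, which makes 5hmC, stood at 0.590 and 0.662 in heart and 0.926 and 0.913 in liver and missed the threshold (-0.51 ± 0.16 / -0.58, adjusted p = 0.0507; 0.0391 with heart replicate 1 alone). Idh1, an isocitrate dehydrogenase, was lower (-1.28 ± 0.28 / -1.64), as was the methyltransferase gene Dnmt3a (-0.71 ± 0.20 / -0.52), which passed neither with heart replicate 1 alone (adjusted p = 0.0846) nor after centring (0.134).

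Over all genes, the bodies with the widest differences were taken among 1190 genes called with and without heart replicate 2, with no overlap between the tissues, a body of 20 kb or more and a level above that of the median gene. The 10 highest in heart held 4 sarcomere genes, Myh6, Myh7, Ttn and Actn2. Itprip, a protein that interacts with the inositol trisphosphate receptor, stood at 1.84 and 2.02 in heart and 0.411 and 0.304 in liver (2.23 ± 0.24 / 2.16). Dusp27, a muscle protein of the dual-specificity phosphatase family, stood at 1.07 and 1.33 against 0.219 and 0.213 (2.12 ± 0.17 / 1.97). Epha8, an ephrin receptor, Igsf3, an immunoglobulin superfamily protein, Ip6k3, an inositol phosphate kinase of muscle, and Bcl11b, a zinc finger factor of T cells, followed with 2.02 ± 0.28 / 1.74, 1.98 ± 0.17 / 2.16, 1.97 ± 0.30 / 1.57 and 1.91 ± 0.35 / 2.48. The 10 lowest were led by Pzp, a protease inhibitor of mouse plasma, at 0.463 and 0.227 against 2.46 and 2.68 (-2.71 ± 0.30 / -2.30). Dpys, a pyrimidine-degrading enzyme, stood at 0.458 and 0.177 against 1.81 and 1.74 (-2.34 ± 0.32 / -1.80). Mcm10, a replication factor, had almost equal replicates, 0.428 and 0.448 in heart and 2.56 and 2.31 in liver (-2.29 ± 0.13 / -2.32). Slc7a2, a transporter of cationic amino acids, Slc13a2, of dicarboxylates, Fmo5, a monooxygenase, Erbb3, a receptor of the epidermal growth factor family, Ass1 and Uox, urate oxidase, had differences of -2.22 ± 0.34 / -1.66, -2.22 ± 0.46 / -1.52, -2.21 ± 0.45 / -1.63, -2.09 ± 0.37 / -1.63, -2.06 ± 0.16 / -2.19 and -2.06 ± 0.44 / -1.28. Sfi1, a centrosomal protein, was the most heavily marked of them, at 1.54 and 4.32 in heart and 11.2 and 11.2 in liver (-2.08 ± 0.47 / -2.80). Bodies that share sequence with other loci are uncertain, since how reads with several matches were placed is not given in the sources used here.

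Calls also moved with the length of the gene body. Among the 1971 bodies of 100 kb or more 23.0% were higher in heart and 18.7% lower, and among the 3126 bodies under 10 kb 3.97% and 12.5%. The shares from heart replicate 1 alone were 33.9% and 19.8% of the long and 4.93% and 18.9% of the short bodies. After centring they were 39.3% and 7.66% of the long and 6.46% and 6.75% of the short. The median level of long bodies was 0.548 and 0.436 FPKM in heart and 0.440 and 0.457 in liver, so heart replicate 2 lay just below liver and heart replicate 1 above it. Short bodies had 0.727 and 0.761 in heart and 1.00 in both liver libraries. The median difference ran from -0.51 in the short to 0.04 in the long bodies (-0.46 to 0.16 with heart replicate 1 alone). Depth moved with length as well, because the median body under 10 kb held 26.0 reads in heart replicate 1 and 1.01 in heart replicate 2, and the median body of 100 kb or more held 745 and 28.0. The part of depth in the shares was not tested. Calcium and ion channel genes, with their long bodies, belong to the class in which calls toward heart were the most frequent.

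**Figure D5:**
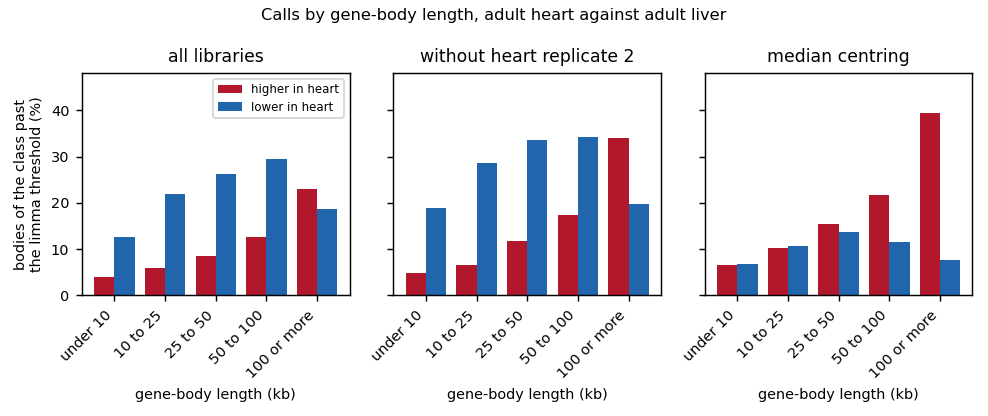
Share of gene bodies in each length class (kb) called higher (red) or lower (blue) in W8 heart than in W8 liver by limma, with all libraries, without heart replicate 2 and after median centring. In the left panel calls toward heart rise from 3.97% under 10 kb to 23.0% at 100 kb or more, and in the middle panel from 4.93% to 33.9%.

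Promoter windows gave a second reading with far fewer reads. The median window held 16.0 reads in heart replicate 1, 0.986 in heart replicate 2, in which 46.1% of windows had no read, and 23.9 and 22.1 in liver. Of 13504 windows tested 1 was higher in heart (0.00741%) and 0 lower (limma; 2284 had an unadjusted p under 0.05). No window passed with heart replicate 1 alone (limma; 1323 unadjusted). The window was that of Krt80, an epithelial keratin, which was singled out after its values were seen. It had 2.83 and 3.07 FPKM in heart and 0.366 and 0.432 in liver (2.68 ± 0.33 / 2.63, adjusted p = 0.0145; 0.106 with heart replicate 1 alone). Its body, at 1.13 and 1.33 against 0.201 and 0.259, differed likewise (2.10 ± 0.23 / 2.00). Over the 1075 bodies called higher both with and without heart replicate 2 the median window difference was 0.10 (0.77 with heart replicate 1 alone), over the 2432 called lower -0.68 (-0.59), and over all windows -0.49 (-0.28). With both heart libraries, window medians of several lists did not follow their bodies. They were -0.20 (1.07) for the sarcomere, -0.24 (0.19) for fatty acid oxidation and -0.22 (-0.18) for plasma proteins, against -2.15 (-1.32) for xenobiotic metabolism. With heart replicate 1 alone the sarcomere windows were close to their bodies, whose median was 1.14. Those of fatty acid oxidation and plasma proteins were not, with body medians of -1.08 and -1.66. These windows abut the bodies and come from the same libraries, so they are not independent of them.

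Of the genes whose upstream DNA is printed, Ryr2 had 0.651 and 1.53 FPKM over its window in heart and 0.142 and 0.123 in liver (2.40 ± 0.94 / 1.82), and Dusp27 had 1.65 and 1.53 against 0.309 and 0.433 (1.92 ± 0.58 / 1.98). Cyp1a2 went the other way, with 0.552 and 0 against 3.07 and 3.36 (-3.95 ± 0.85 / -2.39). The window of Alb, described above, also lay lower in heart, where its body did not. The adjusted p of these 4 lay between 0.200 and 0.264, so none passed. Of all 13504 windows, 4523 had a difference above 0 (5017 with heart replicate 1 alone). Among the 2432 whose bodies were called lower, 650 did (525), a smaller share than over all windows. Among the 1075 whose bodies were called higher, 577 did (862), a larger share. Signs thus went with the bodies more often than over all windows, though part of the genes had opposite signs. Uox and Nr1h4 are given as 2 examples of opposite signs that hold with either set of heart libraries. Uox had 1.14 and 2.31 FPKM in heart and 0.252 and 0.0304 in liver over its window (3.22 ± 0.64 / 2.73) but 0.957 and 0.276 in heart and 2.57 and 2.30 in liver over its body (-2.06 ± 0.44 / -1.28). Nr1h4 had 1.89 and 3.80 against 0.652 and 0.711 over its window (1.87 ± 0.47 / 1.38), against a body that was lower in heart. These 2 were singled out after their values were seen. Over all genes with a single RefSeq promoter, bodies behind promoters with 20 or more CG were lower in heart in 25.4% and higher in 8.12% (31.4% and 11.5% with heart replicate 1 alone), and those behind promoters with 0 to 2 CG in 17.5% and 10.6% (20.2% and 13.6%).

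Whether the tissue difference was the same in adults as in newborns was tested as an interaction with P1, in which W8 and P1 also differ in read format. Of 13484 bodies 2 passed (0.0148%; 2588 had an unadjusted p under 0.05), 1 in each direction (0.00742%), and as many in each with heart replicate 1 alone. These were Pou3f3 and Ppp1r14a, short bodies with few reads, whose values stand in the closing section. No cardiac or hepatocyte gene named above passed. On the sex chromosomes, the median X-linked body had 0.204 and 0.213 FPKM in heart and 0.253 and 0.273 in liver, against 0.628 and 0.620 and 0.792 and 0.803 on autosomes. Ddx3y, a Y-linked helicase, stood at 0.109 and 0.126 in heart and 0.522 and 0.604 in liver (-1.73 ± 0.24 / -1.79, adjusted p = 0.00607), from 19 and 1 reads in heart. The labels give no sex for any of the 4 libraries, and a difference in sex between the groups was not tested.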

How the data were processed

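The authors deposited 1 table per library that gives, for each of 13581 genes, 2 FPKM values (reads scaled by region length and library depth), over a 4000 bp promoter window and over the gene body. Reads were aligned with Bowtie2 to mm9, per the submitters' processing notes. No source used here names the read counter or says how duplicates were treated. All 24 value columns were used, and 0 columns of per-sample values were left out. Values were tested as log2(FPKM + pseudocount) with limma 3.58.1 (trend, 7 group means over 12 libraries, 5 residual degrees of freedom, Benjamini-Hochberg adjustment, threshold 0.05). The pseudocount was 0.0746 for bodies and 0.0723 for windows, and features with a mean under 0.0809 and 0.0739 FPKM were left out, as were 23 genes with no coordinates and 9 with a body of length 0 or less. Fold differences are on this scale and understate changes of low genes. Reads per region were recovered from the steps of the promoter values, which were whole within 0.01 reads, and are approximate.

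Members, gene lists and tests were chosen with earlier results of these data known, and support nothing by themselves. Named genes were, of each list, up to 4 called members with the largest differences that kept their sign without W8 heart replicate 2 and after median centring, plus the 10 highest and 10 lowest over all genes by the conditions given in the report, a set of tissue genes named in any case, and pairs of tissue forms. Krt80, Tnni3, Myoz2, Pou3f3, Ppp1r14a and markers listed at 0 were named after their values were seen. Some genes that the rule would name are not reported here. Coordinates are mm9 from the tables, printed from 1, and promoter sequences are RefSeq, GRCm38.p6. Alternatives were other pseudocounts, filters and scalings, a replicate block, array weights, fewer libraries and leaving out each library. Leaving out 2 libraries, the block without heart replicate 2 and, for the interaction, centring without it were chosen after seeing the data. Same-numbered replicates did not deviate together (10 correlations of deviations, -0.0113 to 0.0420), so the numbers were not taken to pair the samples.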

Additional observations from a re-analysis of the deposited data

Results flagged for a closer look

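In 2 genes the tissue difference itself differed between adults and newborns by limma's interaction test, with n = 2 per group. Pou3f3, a neural POU-domain factor, was listed at 0 in both W8 heart libraries and at 0.424 and 0.232 FPKM in W8 liver, but at 0.739 and 0.868 in P1 heart and at 0 in both P1 liver libraries. The fitted interaction was -5.95 on the log2 scale (adjusted p = 0.0111; 0.0374 without W8 heart replicate 2). Its body is 1062 bp long and held 4 and 2 reads in W8 liver. A floor of 3 reads over both W8 heart libraries is 0.373 FPKM, above the W8 liver mean of 0.328, so the adult side gives no fold. On the newborn side the same floor over both P1 liver libraries is 0.626 FPKM. The P1 heart mean of 0.804 was at least 1.28-fold higher than that, a small margin. Ppp1r14a, an inhibitor of myosin phosphatase, stood at 1.67 and 2.96 FPKM in adult heart, with 2 reads in replicate 2, and at 1.04 and 0.955 in adult liver. It was listed at 0 in both P1 heart libraries and stood at 2.03 and 2.58 in P1 liver, at least 3.75-fold higher than a floor of 3 reads over both P1 heart libraries. The fitted interaction was 6.09 (adjusted p = 0.0201; 0.0374 without W8 heart replicate 2). Fitted values against a group at 0 depend on the pseudocount and are no bounds. Read format differs between the ages in both genes, and its part was not tested.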

How the results depend on the processing

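Median centring, quantile normalization, other pseudocounts and filters, and the replicate block gave between 3011 and 4262 called bodies, against 4151, but centring turned the split as given in the report. Array weights left 474 called bodies, and the W8 libraries alone or the single-end libraries alone 0. Leaving out each library in turn gave between 0 and 6255 called bodies; where 1 library is left in a group, it is assumed to vary like the other groups. The value of 0 came without either liver library, 6255 when W8 heart replicate 1 was dropped and 5363 when replicate 2 was. Without W8 heart replicate 2 and also 1 liver library, a choice made after seeing the data, 2037 and 1920 passed. For promoter windows, with 1 called, centring gave 3, quantile normalization 145, 5 times the pseudocount 23, the W8 or the single-end libraries alone 0, centring without W8 heart replicate 2 2, and that library left out with 1 of the liver libraries 0. Leaving out each library gave between 0 and 5312 windows, the latter without W8 heart replicate 1. For the interaction with P1, with 2 called, quantile normalization gave 1, 5 times the pseudocount 6, array weights 0, centring without W8 heart replicate 2 490, and that library left out with 1 of the liver libraries 0. Leaving out each library gave between 0 and 3929, the latter without W8 heart replicate 1. The cause of these shifts was not tested. The replicate numbers, which did not pair the samples, as a replicate block gave 3785 bodies, 2 windows and 1 interaction, and without W8 heart replicate 2 4927, 0 and 0. Of 100 named genes, 1 changed direction in any fit; Alb, at 1.10 with all libraries, had -0.013 when heart replicate 2 and liver replicate 1 were dropped, and 2.13, then past the threshold, without heart replicate 1. Without W8 heart replicate 2, 4 of the 100 lost their call and 3 gained one, and after centring 10 lost theirs and 1 gained one. Array weights took the call from 52 of the 100, the W8 or the single-end libraries alone or the loss of either liver library from 94, and the loss of heart replicate 2 with liver replicate 1 or 2 from 27 and 28. Depth limits heart replicate 2 most, whose median body held 5.04 reads.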
